A study of Mus musculus with 9 samples.

Results

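The regions described here are m6A peaks whose summit lay just outside a gene. They were the peaks of the 2 wild-type peak lists whose summit, the position of highest enrichment, fell outside every annotated gene body of the mouse build mm10 while the peak interval came within 500 bp of at least 1 gene body. There were 530 such peaks among 22531 in replicate 1 (2.35%, exact 95% binomial interval 2.16 to 2.56) and 66 among 5040 in replicate 2 (1.31%, 1.01 to 1.66). Most summits lay inside a gene body, 92.2% in replicate 1 and 96.9% in replicate 2. Intervals of shares cover counting error only, since peaks of a list are not replicates, and no test was made over peaks.

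The study asked how Zc3h13, known as Flacc in flies, takes part in m6A methylation of mRNA in mouse embryonic stem cells (mESCs). It comprised 9 libraries: immunoprecipitations from wild-type, Mettl3KO and Zc3h13KO cells with a rabbit polyclonal antibody to m6A, and inputs of the same genotypes. All libraries share the background given as Rosa26:CRE, Bir ligase. The 2 wild-type immunoprecipitations were used here, and the remaining 7 were left out. The labels call the samples replicates but do not say whether they came from separate cultures. Peak lists carry no expression values, so the labelled cell type could not be checked against its markers, and no read counts, so the depth is unknown.

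N6-methyladenosine (m6A) is laid down on nascent mRNA by a methyltransferase complex of Mettl3, Mettl14 and regulatory subunits such as Wtap, and is read by proteins of the Ythdf, Ythdc and Igf2bp families. It is best known from long internal exons and from the last exon around the stop codon, in the sequence context RRACH, of which GGACU is a common form. A gene body runs from the outermost annotated start to the outermost annotated end of a gene, introns included. The study assigned peaks to genes within the same 500 bp, so these peaks reach a gene by that allowance or by their flank alone.

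Examples of stretches before the gene start that held summits of both replicates are given on the gene's own strand. The sources used here do not give the strand of the enriched RNA. The following 6 were read from the RefSeq promoter sequences of GRCm38.p6 and run 5′ to 3′ on the strand of the gene. Capitals mark GGACT, or AGTCC, which is GGACT on the opposite strand. Bmp6, Slc20a1 and Ccnc are among the strongest sites in both lists, Smad3 is named for its distance, and Nhs and Hmga2 were picked once their values were known, as a stretch with repeated GGACT and a pyrimidine-rich stretch without it.
Bmp6, chr13:38345551-38345670, + strand: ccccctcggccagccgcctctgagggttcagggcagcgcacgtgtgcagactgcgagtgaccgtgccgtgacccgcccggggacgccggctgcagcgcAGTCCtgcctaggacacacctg
Slc20a1, chr2:129198596-129198715, + strand: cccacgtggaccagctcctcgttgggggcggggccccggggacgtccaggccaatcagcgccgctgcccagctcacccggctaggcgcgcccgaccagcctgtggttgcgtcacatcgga
Ccnc, chr4:21727451-21727535, + strand: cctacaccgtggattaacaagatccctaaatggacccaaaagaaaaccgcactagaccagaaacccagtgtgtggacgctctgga
Smad3, chr9:63757995-63758079, - strand: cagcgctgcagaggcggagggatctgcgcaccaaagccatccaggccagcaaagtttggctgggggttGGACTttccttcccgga
Nhs, chrX:162159470-162159589, - strand: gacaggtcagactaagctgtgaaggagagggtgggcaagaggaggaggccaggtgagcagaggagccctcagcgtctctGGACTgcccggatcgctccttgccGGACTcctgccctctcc
Hmga2, chr10:120476499-120476618, - strand: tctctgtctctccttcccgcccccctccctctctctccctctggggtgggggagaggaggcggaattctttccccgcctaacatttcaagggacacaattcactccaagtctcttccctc
The summits of Bmp6 lay 104 bp before the start in replicate 1 and 106 bp in replicate 2, inside the stretch shown. Those of Nhs lay 88 and 89 bp before the start, those of Smad3 27 and 23 bp, and those of Hmga2 93 and 85 bp. In all 4 the replicates placed the summit within 8 bp of each other.

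The letters GGACT were counted in the 250 bases before the start of every gene whose promoter sequence was given at its outer edge, 19827 windows in all. They were present on either strand in 38.1% of these windows and on the strand of the gene in 20.6%. Of 117 replicate 1 peaks whose summit lay in such a window, 60 windows held GGACT on either strand (51.3%, 41.9 to 60.6) and 34 on the strand of the gene (29.1%, 21.0 to 38.2). The corresponding windows of replicate 2 were 7 of 12 (58.3%, 27.7 to 84.8) and 4 of 12. Base composition moved with this count: the median GC content was 62.4% in the replicate 1 windows and 60.2% in those of replicate 2, against 50.0% over all windows, and its part in the count was not tested. A match of letters is a description of the window and not a methylated site.

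Wtap, the regulatory subunit that holds the Mettl3 and Mettl14 heterodimer in nuclear speckles, was the only gene of the methyltransferase complex with such a peak, 1 of 8 genes in each list. Of all protein-coding genes, 1.94% lay within 500 bp of such a peak in replicate 1 and 0.256% in replicate 2. The Wtap peak lay beyond the start of the gene, which is on the minus strand of chromosome 17 (12966799 to 12992543). In replicate 1 the peak spanned chr17:12992667-12993238 with its summit 462 bp from the gene body, and in replicate 2 it spanned chr17:12992724-12993207 with its summit 406 bp away. Replicate 1 gave it a fold enrichment over input (the authors' MACS2 value) of 8.17, beside 8.31 in replicate 2. Its −log10 q, the MACS2 significance after correction for multiple testing, was 57.7 and 9.69. No other peak of either list lay within 500 bp of Wtap, so the gene was in both lists through this site alone.

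To place the summits on the transcript, the strand of the nearest gene was taken from the RefSeq promoter sequences, which gave it for 371 of the 530 replicate 1 peaks (70.0%) and 48 of the 66 replicate 2 peaks (72.7%). Among these, 250 replicate 1 summits lay beyond the start (67.4%, 62.4 to 72.1) and 121 beyond the end (32.6%, 27.9 to 37.6). In replicate 2, 25 lay beyond the start (52.1%, 37.2 to 66.7) and 23 beyond the end (47.9%, 33.3 to 62.8). The start was thus the more frequent side in replicate 1, while in replicate 2 the interval spans an even split.

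Summits just inside a gene were more often at the start in replicate 1 and at the end in replicate 2. Of summits in the first or last 500 bp of a single protein-coding gene of known strand, 644 of 1401 were in the last 500 bp in replicate 1 (46.0%, 43.3 to 48.6) and 263 of 385 in replicate 2 (68.3%, 63.4 to 72.9). Beside these, the end share of outside summits with a protein-coding nearest gene was 88 of 309 (28.5%, 23.5 to 33.9) and 18 of 43 (41.9%, 27.0 to 57.9). In each list the interval for outside summits lay wholly below that for inside summits. The inside summits were limited to 500 bp, while the outside ones were taken at every distance the rule allowed. Close to the edge this order did not hold. In the nearest 100 bp, replicate 1 held 15 inside summits at the end and 101 at the start, against 17 and 66 outside. Replicate 2 held 0 and 9 inside, against 3 and 6 outside. Nearest genes that were lncRNAs showed a larger share beyond the end, 30 of 58 in replicate 1 (51.7%, 38.2 to 65.0) and 5 of 5 in replicate 2.

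**Figure D1:**
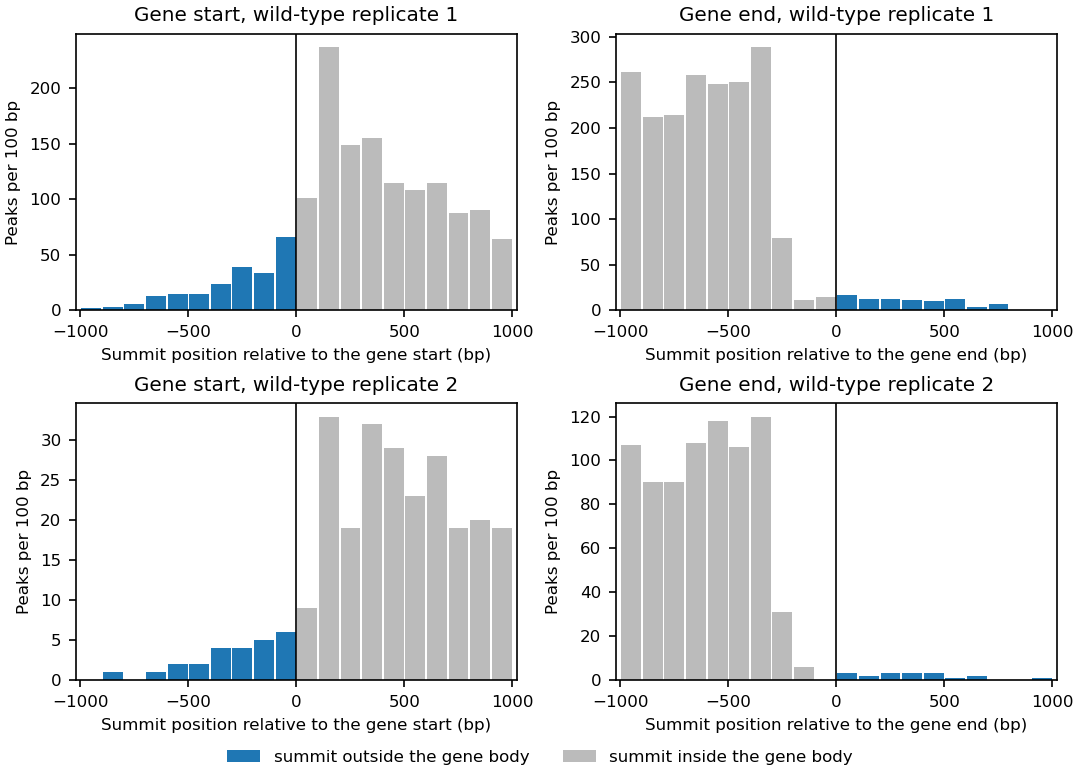
Number of summits per 100 bp (vertical axes) by position relative to the start (left) and the end (right) of protein-coding genes of known strand (horizontal axes, bp), for replicate 1 (top) and replicate 2 (bottom), with blue bars outside and grey bars inside the gene. At the end, counts fall from 289 summits between 300 and 400 bp inside the gene to 17 in the first 100 bp outside in replicate 1, while at the start the first 100 bp outside hold 66 summits and the first 100 bp inside 101 summits.

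The profile around the gene edges differed between start and end. Before the start, replicate 1 summits fell off from 66 in the first 100 bp outside to 15 between 400 and 500 bp. Beyond the end, the fall was smaller and the counts were low, with 17 in the first 100 bp and 10 between 400 and 500 bp. Inside the end, the last 100 bp of genes held 15 summits and the 100 bp before them 11, against 289 between 300 and 400 bp from the end. The outside counts beyond 500 bp are thinned by the rule, since only intervals that reach within 500 bp of a gene were kept.

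Summits lay 1 to 1472 bp from the nearest gene body in replicate 1, with a median of 247.0 bp and quartiles of 102.2 and 443.5 bp. In replicate 2 they lay 5 to 990 bp away, with a median of 287.5 bp and quartiles of 159.2 and 465.2 bp. Those beyond a start were nearer than those beyond an end, with medians of 223.0 against 330.0 bp in replicate 1 and 247.0 against 311.0 bp in replicate 2. The peak interval itself overlapped a gene body in 250 of 530 peaks of replicate 1 (47.2%, 42.9 to 51.5) and in 27 of 66 of replicate 2 (40.9%, 29.0 to 53.7). At the limit of the rule in replicate 1, 35 peaks lay 401 to 500 bp from a gene with a median fold enrichment of 6.35, and 47 peaks just outside it, at 501 to 600 bp, had a median of 6.16.

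The peaks had a higher median fold enrichment than their lists as a whole, and in replicate 1 a lower median −log10 q. Median fold enrichments were 6.52 against 5.39 over all replicate 1 peaks and 7.17 against 6.35 over all replicate 2 peaks. The median −log10 q was 22.7 against 28.9 in replicate 1 and 7.11 against 7.54 in replicate 2. In replicate 2 the quartiles were close, 4.88 and 11.3 against 4.90 and 11.2. By side, the replicate 1 medians were 6.83 beyond a start and 5.93 beyond an end, and the replicate 2 medians 7.75 and 7.16. Their widths were close to those of all peaks, with medians of 437.5 against 445.0 bp and 435.0 against 446.0 bp.

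A host gene, meaning any gene whose body lay within 500 bp of the interval, was found for 586 genes in replicate 1 (1.17% of 49997 annotated genes) and 71 in replicate 2 (0.142%), and 65 genes were hosts in both. The nearest gene was protein-coding for 387 replicate 1 peaks (73.0%) and 54 replicate 2 peaks (81.8%), a lncRNA for 76 and 8, and a pseudogene for 60 and 4. For 218 of the replicate 1 host genes (37.2%) and 53 of the replicate 2 host genes (74.6%) these were the only peaks of the list within 500 bp. The 2 shares are not comparable, since the lists hold 22531 and 5040 peaks. Genes reached in both lists numbered 3919, and 3861 when these peaks were left out. The difference of 58 genes comprised 47 protein-coding genes and 6 lncRNAs, and it includes Wtap, Bmp6, Dicer1, Smad3 and Lefty2.

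Peaks that recurred in the other replicate were examined next. Of the replicate 1 peaks, 70 of 530 overlapped a replicate 2 peak by at least 1 bp (13.2%, 10.4 to 16.4), against 19.1% of all replicate 1 peaks. Of the replicate 2 peaks, 65 of 66 overlapped a replicate 1 peak (98.5%, 91.8 to 100), against 92.1% of all. These shares depend on the lists, which are of unequal length, and on the rule of overlap. Replicate 1 was also cut by −log10 q to the size of replicate 2. The shares were then 54.7% of the 75 replicate 1 peaks left and 53.0% of the replicate 2 peaks. The cut shortens the list and keeps its strongest peaks, so length and strength cannot be told apart. With the uncut lists and an overlap of at least 50% of both peaks required, the shares were 8.68% and 62.1%. Shares over all peaks are not given here for these 2 settings. The only replicate 2 peak without any overlap was at Vps51, which encodes a subunit of a tethering complex of the Golgi. This peak, at chr19:6077005-6077368, was enriched 5.38-fold at a −log10 q of 4.17 with its summit 56 bp outside the gene. Replicate 1 peaks beyond an end overlapped replicate 2 in 26 of 121 cases (21.5%, 14.5 to 29.9), those beyond a start in 26 of 250 (10.4%, 6.91 to 14.9).

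Overlap with replicate 2 rose with the −log10 q in replicate 1. When all replicate 1 peaks were divided into 4 equal classes by their −log10 q, at 14.1, 28.9 and 59.3, the outside peaks overlapped in 1 of 178, 6 of 149, 18 of 112 and 45 of 91 cases. The shares were 0.562%, 4.03%, 16.1% and 49.5%, beside 2.84%, 7.92%, 18.5% and 47.2% of all replicate 1 peaks. The exact interval for outside peaks was 0.0142 to 3.09% in the lowest class and 38.8 to 60.1% in the highest, and in each of the 4 classes it included the share of all peaks. Peaks that overlapped were also wider, with a median of 727.5 bp against 402.5 bp for those that did not. A wider interval meets an overlap of 1 bp more easily. Over all replicate 1 peaks, those that overlapped had a median of 797.0 bp, against 445.0 bp for the whole list.

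**Figure D2:**
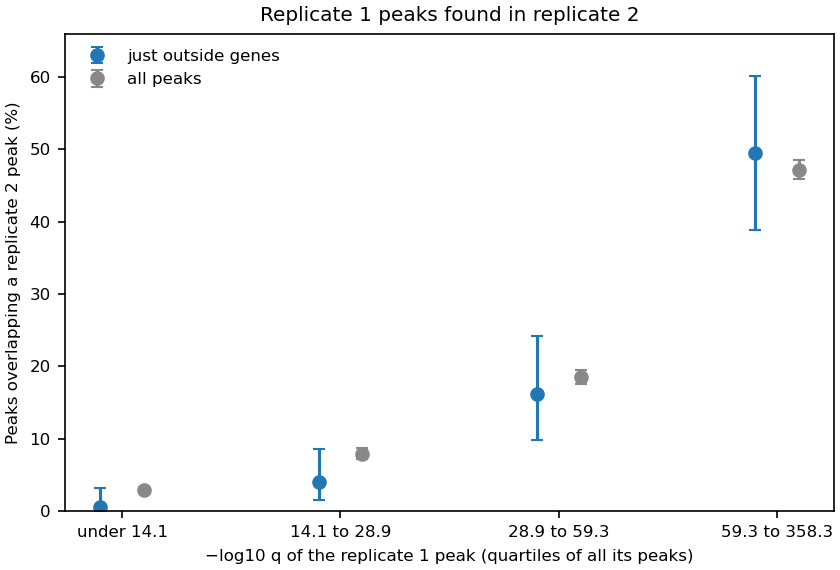
Share of replicate 1 peaks that overlapped a replicate 2 peak (vertical axis, percent) in each of 4 classes of replicate 1 −log10 q (horizontal axis), for peaks with the summit just outside a gene and for all peaks of the list, which include them, with exact 95% binomial intervals. The outside peaks run from 0.562% in the lowest class to 49.5% in the highest, and all peaks from 2.84% to 47.2%.

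In 61 sites a replicate 1 peak of this kind overlapped a replicate 2 peak of this kind, and the nearest gene was the same in all 61. Of these sites, 23 lay beyond a start, 21 beyond an end and 17 beside a gene whose strand was not given. The nearest gene was protein-coding in 51, a lncRNA in 6 and a pseudogene in 4. The summits of the replicates were a median of 7 bp apart, with quartiles of 3.00 and 24.0 bp, and 48 of the 61 pairs were within 50 bp (78.7%, 66.3 to 88.1). Over all 4684 overlapping pairs of the lists the median was 10 bp and 73.1% were within 50 bp.

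**Figure D3:**
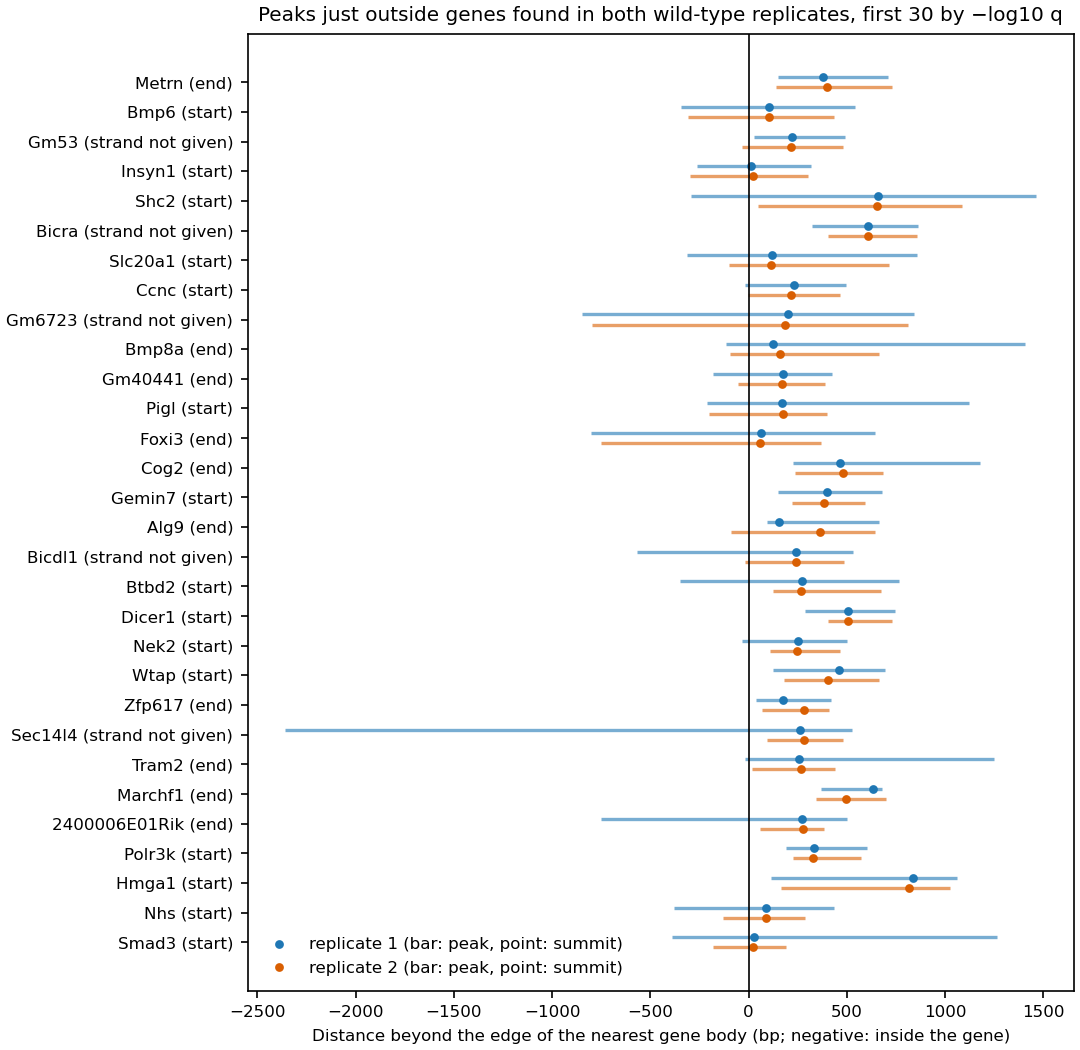
Peak intervals (bars) and summits (points) of replicate 1 (blue) and replicate 2 (orange) relative to the edge of the nearest gene body (horizontal axis, bp, negative inside the gene) for the 30 sites with the highest −log10 q in the lower replicate, each named by gene and side. Summits of both replicates nearly coincide at most sites, as at Bicra with a gap of 0 bp, and are farthest apart at Alg9 with 212 bp, while the replicate 1 intervals are often the wider ones, as at Smad3 with 1657 against 372 bp.

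The remaining overlaps joined a peak outside a gene with a peak of another class. The 9 such peaks of replicate 1 met 3 replicate 2 peaks whose summit was inside the gene and 6 whose interval was further than 500 bp from it. At Fancl, which encodes the ubiquitin ligase of the Fanconi anaemia pathway, the summit was 16 bp before the start in replicate 1 and 21 bp away, inside the gene, in replicate 2, with fold enrichments of 7.94 and 16.9. At Mxd3, a partner of Max in the Myc network, the summits were 2 bp apart and 774 bp before the start in replicate 1, with fold enrichments of 19.8 and 11.9, and the narrower replicate 2 interval missed the 500 bp limit. Both were picked once their values were known. The 4 such peaks of replicate 2 met replicate 1 peaks whose summit was inside the gene, and the summits of these pairs were 83 bp apart at Tmem11, 214 bp at AV205837, 406 bp at Misp3 and 679 bp at Gm10451.

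Bmp6, a secreted ligand of the BMP family, was enriched 25.1-fold in replicate 1 and 15.5-fold in replicate 2, the highest of all sites by the lower replicate. The peak lay across the start of the gene, at chr13:38345176-38346062 in replicate 1. At Bmp8a, another BMP ligand, the peak lay beyond the end, with fold enrichments of 16.2 and 9.96 and summits 125 and 159 bp outside. A further ligand, Bmp7, picked once its values were known, had a replicate 1 peak enriched 13.0-fold at a −log10 q of 77.8 and no overlap in replicate 2. Smad3, a transcription factor downstream of TGF-β receptors, had fold enrichments of 17.2 and 6.09 before its start, and 6 other peaks of replicate 1 but 0 of replicate 2 lay at this gene.

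Among the other sites beyond a start, Shc2, an adaptor of receptor tyrosine kinases, had the highest fold enrichment in replicate 1, 36.5, and 12.5 in replicate 2. Its −log10 q was 260.7 and 18.4, and its summits lay 658 and 654 bp from the gene. Insyn1, which encodes a protein of inhibitory synapses, had fold enrichments of 11.8 and 14.0 with summits 11 and 25 bp outside. Ccnc, the cyclin of the Mediator kinase module, had 17.5 and 10.9, and Slc20a1, a sodium-dependent phosphate transporter, 11.2 and 10.3. These sites were among the 10 highest by the lower fold enrichment.

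Beyond the end of a gene, Metrn, which encodes the secreted neurotrophic factor meteorin, had the highest lower −log10 q of all sites, 136.1 in replicate 1 and 26.0 in replicate 2. Its fold enrichment was 10.04 and 16.2, its summits lay 377 and 399 bp outside, and no other peak of either list lay at the gene. The lncRNA Gm40441 had fold enrichments of 22.6 and 10.5 with summits 173 and 172 bp beyond its end. Foxi3, a forkhead transcription factor, had 11.4 and 7.42 with summits 62 and 58 bp beyond its end. A further replicate 1 peak of Foxi3 lay 17 bp before its start, enriched 3.68-fold.

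Where the strand was not given, the sites highest by the lower −log10 q were at Gm53, Bicra and Gm6723. Gm53, a lncRNA, had fold enrichments of 9.98 and 15.2, and Bicra, a subunit of a BAF chromatin remodelling complex, 10.1 and 11.9 with its summit 607 bp from the gene in both replicates. The pseudogene Gm6723 had 8.32 and 11.4. A pseudogene can share sequence with its parent gene, and the sources used here do not say how reads that map to several places were handled, so the values of Gm6723 are uncertain.

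The fold enrichment was higher in replicate 1 at 37 of the 61 sites. Among all peaks that overlapped the other list, replicate 2 instead had the higher median, 6.35 against 5.72. A count over all 4684 overlapping pairs is not given here, so whether the 37 is particular to these sites was not tested. The order of sites by fold enrichment also differed between the lists. Fgf3, a growth factor, had 22.4 in replicate 1 and 5.61 in replicate 2, with summits 194 and 26 bp before its start. The lncRNA 2400006E01Rik had 27.4 and 8.24 beyond its end. Twistnb had 2.25 and 5.04, and its summits were 401 bp apart, the widest gap of all sites. The lncRNA and Twistnb were picked once their values were known.

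**Figure D4:**
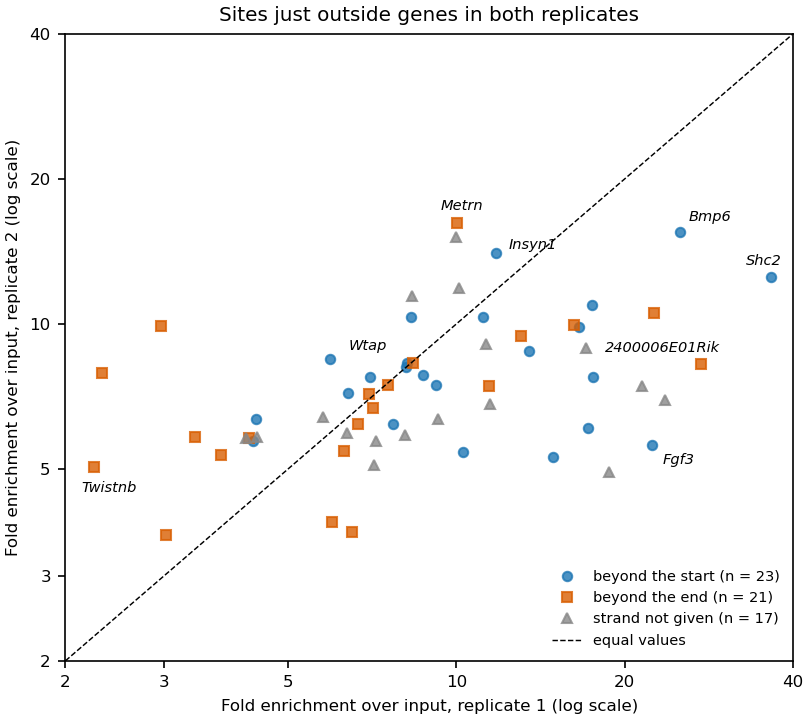
Fold enrichment over input in replicate 1 (horizontal axis, log scale) and replicate 2 (vertical axis, log scale) at the 61 sites, by side of the gene, with the line of equal values dashed. Points lie on both sides of the line, from Shc2 at 36.5 and 12.5 to Twistnb at 2.25 and 5.04.

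Next come the sites nearest to and farthest from their gene. The summits of Zic5, a zinc finger transcription factor, lay 5 bp beyond the end in both replicates, with fold enrichments of 4.26 and 5.79. Those of Nhlrc3 lay 738 and 990 bp beyond the end, with 3.79 and 5.35. Those of Hmga1, an architectural chromatin protein, lay 837 and 816 bp before the start, with 7.02 and 7.75. Pole3, an accessory subunit of DNA polymerase epsilon, had 3.03 and 3.64 with summits 676 and 674 bp beyond its end.

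Peaks within 500 bp of 2 or more genes made up 62 of 530 in replicate 1 (11.7%, 9.09 to 14.7) and 5 of 66 in replicate 2 (7.58%, 2.51 to 16.8). Over all peaks, for which overlapping genes also count, the shares were 13.5% and 14.0%. Of the 62, 56 had 2 host genes, 5 had 3 and 1 had 4. The summit lay between 2 gene starts in 23 of them, between a start and an end in 6 and between 2 ends in 2, while in 19 it lay between genes of which a strand was not given. In 6 both genes were on the same side and 6 had 3 or more genes. In replicate 2 none lay between 2 starts.

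Pigl, a GPI anchor biosynthesis enzyme, and Ncor1, a nuclear receptor co-repressor, start on either side of a replicate 1 peak enriched 8.31-fold at a −log10 q of 134.5. The narrower replicate 2 peak at the same site, with a fold enrichment of 10.3, reached Pigl alone. At Rln3, a peptide hormone of the relaxin family, and Il27ra, a cytokine receptor, both lists reached both genes, with fold enrichments of 5.99 and 3.88. Both genes were also reached in both lists at Tbx10 and Nudt8, with 6.66 and 6.20, and at Gpx7 and Gm32297, with 7.71 and 6.20 and summits 7 and 131 bp before the start of Gpx7. At Shc2 with Odf3l2 and at Gm11696 with 1700096J18Rik the second gene was reached in replicate 1 only. The second site of Gm53 reached Gm51876 and Mir196a-1 too in both lists, with 4.40 and 5.83. Such a peak cannot be given to 1 of its genes from these lists.

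Genes with 2 or more such peaks numbered 13 in replicate 1 and 1 in replicate 2. In replicate 2 the gene was Gm53. In replicate 1 the 5 highest were Foxi3, Gm53, Fgf3, Kdm4dl and Gm34722. Fgf3 had its second peak 309 bp beyond its end with a fold enrichment of 3.91. Gm34722, a lncRNA, had 1 peak beyond its start with a fold enrichment of 12.1 and another beyond its end with 6.37. The peaks of the pseudogene Kdm4dl had fold enrichments of 22.4 and 11.5, with summits 114 and 605 bp from it, and are uncertain as at Gm6723.

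The strongest replicate 1 peaks without an overlap in replicate 2 were at regulators of chromatin and the cytoskeleton and at less described genes. Ep300, a histone acetyltransferase, had a peak with its summit 628 bp before its start, enriched 18.9-fold at a −log10 q of 232.5. Enah, an actin regulator, had 8.59 at 957 bp, and Hmgb2, an HMG-box protein, 10.3 at 223 bp, both before the start. The lncRNA 2900052L18Rik had 21.3 at 1 bp. Gm2381, a transcribed pseudogene, had 6.93 at 1472 bp, the largest distance in replicate 1, and its values are uncertain as at Gm6723. The lowest −log10 q of the 5 was 138.6, at Hmgb2.

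Host genes were also counted in lists of related genes, beside 1.94% of all 21900 protein-coding genes in replicate 1 and 0.256% in replicate 2. Of 12 readers and erasers of m6A, Ythdf2 and Igf2bp2 were hosts in replicate 1 and none in replicate 2. Their peaks lay before the start, with fold enrichments of 5.25 and 4.78. Of 21 pluripotency factors, Prdm14 was a host in replicate 1, enriched 4.93-fold, and none in replicate 2. None of 20 lineage factors, 17 immediate early genes, 19 genes of cleavage and polyadenylation, 39 Hox genes and 19 Sox genes was a host in either list.

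Of 68 histone genes, 7 were hosts in replicate 1 (10.3%) and 0 in replicate 2. H3c15 had a summit 24 bp beyond its end with a fold enrichment of 8.06, H2ac13 one 149 bp beyond its end with 7.09, and H1f2 one 290 bp beyond its end with 4.94. H3c8 had a peak on each side, with a fold enrichment of 8.67 before its start and 4.97 beyond its end. The peak of H2ac13 also lay within 500 bp of H3c10, and the one before the start of H3c8 within 500 bp of H2ac10. H2bc14 shared its peak with the pseudogene H2ac14. H3c10, H2ac10 and H2bc14 were thus hosts through a shared peak alone. Copies of the same histone type can be similar in sequence, so reads may have been placed at a wrong copy and these values are uncertain. Whether the flanks that hold these summits are similar between copies was not examined.

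Of 44 Fox genes, 5 were hosts in replicate 1 (11.4%) and 1, Foxi3, in replicate 2 (2.27%). Among the 5, Foxn3 was a host through a shared peak alone, with its summit 18 bp from the lncRNA Gm26839 and between 2 starts. The replicate 1 fold enrichment was 12.1 at Foxj3, 12.1 at Foxo3 and 8.10 at Foxn2, and none of these 3 was a host in replicate 2. Of 397 Zfp genes, 14 were hosts in replicate 1 (3.53%) and 2 in replicate 2 (0.504%). The latter were Zfp617, with fold enrichments of 8.37 and 8.31 and summits 173 and 280 bp beyond its end, and Zfp935, with 6.30 and 5.45 and summits 163 and 161 bp beyond its end.

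Other sites in both lists lay at genes with known parts in RNA biology and development, and the following were picked once their values were known. Dicer1, the RNase that makes mature miRNAs, had fold enrichments of 13.5 and 8.79 with summits 507 and 504 bp before its start. Smg5, a factor of nonsense-mediated decay, had 9.20 and 7.48, also before its start. Lefty2, a secreted antagonist of Nodal, had 9.26 and 6.35 with summits 638 and 644 bp from the gene, whose strand was not given. Hmga2 had 4.38 and 6.34, a lower −log10 q of 6.43, and 1 other peak at the gene in replicate 1.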

How the data were processed

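m6A immunoprecipitations of wild-type mESCs were analysed from 2 peak lists. The submitters' processing notes list Bowtie, SAMtools and MACS2 and the build mm10, with no versions. MACS2 was run by the authors with its defaults on each immunoprecipitation, unpooled, with input as control. Each deposited peak carries a fold enrichment (a ratio over input), −log10 values of its p-value and q-value, and a score, which repeats the −log10 q and was not used. Peak names in the replicate 1 list bear another sample name than wild-type, so samples follow the labels. The labels list 1 wild-type input, and the libraries were made with a directional kit. Use of strand in the peak calls, and handling of duplicates beyond the defaults, are not given in the sources used here. Without read counts the depth is unknown and no value was adjusted for it.

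Summits and intervals were compared with the bodies of 49997 RefSeq genes of GRCm38.p6, the assembly of mm10. Strand came from the RefSeq promoter sequences, which cover 250 bases before and 50 after each start, and was available for 28097 genes. Histone genes were matched by symbol or synonym, and 19 of the cleavage and polyadenylation genes were matched by symbol. Exact binomial intervals have a level of 95%. On 1500 simulated peaks the rule gave 254 peaks with 0 differences from an exhaustive search. Scripts ran under Python 3.11.15 with scipy 1.17.1, pandas 2.3.3, numpy 2.4.6 and matplotlib 3.10.9.

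The peaks, gene lists and rules were chosen with earlier results of these data known. Genes were named if they belong to the methyltransferase complex, or were sites in both lists among the 10 highest by fold enrichment or by −log10 q of the lower replicate, the 3 nearest or 3 farthest, or those with several hosts. Up to 5 genes with several peaks, the 5 strongest replicate 1 peaks without overlap, replicate 2 peaks without overlap and up to 4 host genes a list were also named. The histone, Fox and Zfp genes named departed from this last rule and were picked once their values were known. Alternatives were thresholds on −log10 q and fold enrichment, protein-coding genes only, other distances and overlaps, a reduced replicate 1 and each replicate alone. Sequence at summits elsewhere than in the promoter sequences was not analysed here.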

Additional observations from a re-analysis of the deposited data

How the results depend on the processing

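Of 78 recomputed values, 51 stayed within their counting interval, within 28.6 bp for a median or within 1.5 times for a count, and 27 did not. With a −log10 q of at least 5 the share overlapping the other list was 10.1% in replicate 1 and 100% in replicate 2, and at fold enrichments of 4 or more 88.9% in replicate 2. Both lists were filtered in these settings. Overlap shares over all peaks are not given here for any altered setting. A change particular to these peaks therefore cannot be told from one of every peak. With protein-coding genes alone the median distance in replicate 1 was 277.0 bp, the shares beyond an end 24.9% and 32.8%, and the share with 2 or more genes in replicate 1 7.54%. By construction, an allowance of 250 bp gave median distances of 189.0 and 247.0 bp, and one of 1000 bp 343.0 and 346.0 bp. Requiring the whole interval outside genes left 280 and 39 peaks, with medians of 404.5 and 406.0 bp, 41.1% beyond an end and 5.36% with 2 or more genes in replicate 1, 100% overlap in replicate 2 and 25 host genes in both. An overlap of 50% lowered the shares overlapping to 8.68% and 62.1%, and summits within 100 bp gave 78.8% in replicate 2. Cutting replicate 1 by −log10 q to the size of replicate 2 left 75 of the 530 peaks, shares overlapping of 54.7% and 53.0%, and 35 host genes in both. In that reduced list the share beyond an end was 32.7% and the median distance 223.0 bp, an alternative chosen after seeing the data. With 1 replicate left out, host genes numbered 71 to 586. Where construction does not show it, the cause was not tested. No paired analysis was possible because only 1 group had peak lists. Peaks of low −log10 q in replicate 1 could not be judged by replicate 2, whose depth is unknown.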
